A study of Mus musculus with 8 samples.

Results

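Plasmacytoid dendritic cells (pDC) and conventional dendritic cells (cDC) were compared with each other in mice treated with panobinostat, using the 4 panobinostat libraries of a series of 8. Both groups came from spleens of C57BL/6 mice that carried a leukemia and received panobinostat, an inhibitor of histone deacetylases, for 2 days. The groups differ by the sorted cell type alone, with 2 libraries each, and every library is 1 pool of 3 to 6 mice. The labels call the libraries biological replicates and give neither age, sex, dose, sorting markers nor the kind of leukemia, and their extraction text speaks of sorted leukemia cells where titles and source names give DC. The 4 other libraries, pDC and cDC from leukemia-bearing C57BL/6 mice given vehicle, serve below as a reference that shares no library with the panobinostat comparison.

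Both cell types arise from Flt3-dependent bone marrow progenitors. The pDC program is held by the E protein Tcf4 with Spib, Runx2 and Irf8, and the cells are known for sensing nucleic acids through Tlr7 and Tlr9 and for secreting type I interferon. The cDC express Zbtb46 and Id2, a partner that keeps E proteins from DNA, and are known for taking up antigen, migrating through Ccr7 and priming T cells. Type 1 cDC depend on Batf3 and cross-present antigen, and type 2 cDC carry several C-type lectins and Sirpa.

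The defining markers matched the labels in every library. Siglech, a pDC surface lectin (Entrez Gene 233274, chromosome 7, 55768154 to 55779448), was at 5146 and 6047 CPM (counts scaled by library size) in the pDC libraries and at 1.77 and 1.75 CPM in the cDC libraries. Pairs of values are given here and below in the order replicate 1, replicate 2. Tcf4 was at 1516 and 970 CPM in pDC and at 44.2 and 46.5 CPM in cDC. Zbtb46 (72147, chromosome 2, 181371009 to 181493262) went the other way, at 4.13 and 18.1 CPM in pDC and at 193 and 176 CPM in cDC. None of the 3 genes overlapped between the groups.

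The 4 libraries differed in depth. They held 13124861 to 20429668 counts, and pDC replicate 2, the shallowest, detected 10745 genes where the 3 other libraries detected 14927 to 17880. Of the 13267 genes tested, 3093 had 0 counts in pDC replicate 2, and 2241 of those had at least 10 counts in pDC replicate 1. The median size of the log2 difference between replicates was 1.142 in pDC and 0.219 in cDC. Values are therefore given per library, and counts of calls or medians also without pDC replicate 2. That fit leaves pDC with 1 library, which is assumed to vary like the cDC libraries. Reads carry no molecular identifiers, so lower bounds given for genes with 0 counts cover counting error only. In bulk RNA, fewer cells of a type and less RNA per cell cannot be told apart.

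Known lineage genes stood at both ends of the comparison. At the top of the pDC side were Siglech, Klk1 and its relatives, Dntt and Cox6a2. On the cDC side were Zfp366, Ccl22, Gcsam and Tgfbi, all with 0 counts in both pDC libraries. Of 13267 genes tested with edgeR's quasi-likelihood test, 161 (1.21%) passed an adjusted p of 0.05 (Benjamini-Hochberg over all genes tested). Of these, 103 (0.776%) were higher in pDC and 58 (0.437%) higher in cDC. In all 161, both libraries of one lineage lay above both of the other. That order was common among all genes tested: both pDC libraries were above both cDC libraries in 3413 genes (25.7%), and the reverse held in 5070 (38.2%). The median log2 fold change (pDC minus cDC, so above 0 means higher in pDC) over all genes tested was -0.19.

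The adjusted p values of the called genes ran only from 0.0428 to 0.0498, so membership in the called set turns on small changes. Without pDC replicate 2, 6325 genes (44.3%) were called, 2712 (19%) higher in pDC and 3613 (25.3%) higher in cDC, all 161 among them in the same direction. Adding the replicate number as a block gave 589 calls (4.44%), 297 (2.24%) higher in pDC and 292 (2.2%) higher in cDC, again with all 161 among them. With all 8 libraries in the fit 2557 genes (18%) were called, 1105 (7.76%) higher in pDC and 1452 (10.2%) higher in cDC. RLE scaling left 82 called, all of them among the 161. These fits reuse the same libraries, in which the 161 already had no overlap, so their kept direction is no separate support. Of all 13267 genes, 2985 had an unadjusted p under 0.05. DESeq2 called 2057, limma-voom 712 and limma-voom with quality weights 564. The shares over all genes given here for each fit are the background for the list counts below. In the plot of log2 fold change against level, the called genes lie at middle and high levels, and the lowest line of gray points is genes with 0 counts in both pDC libraries.

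**Figure D1:**
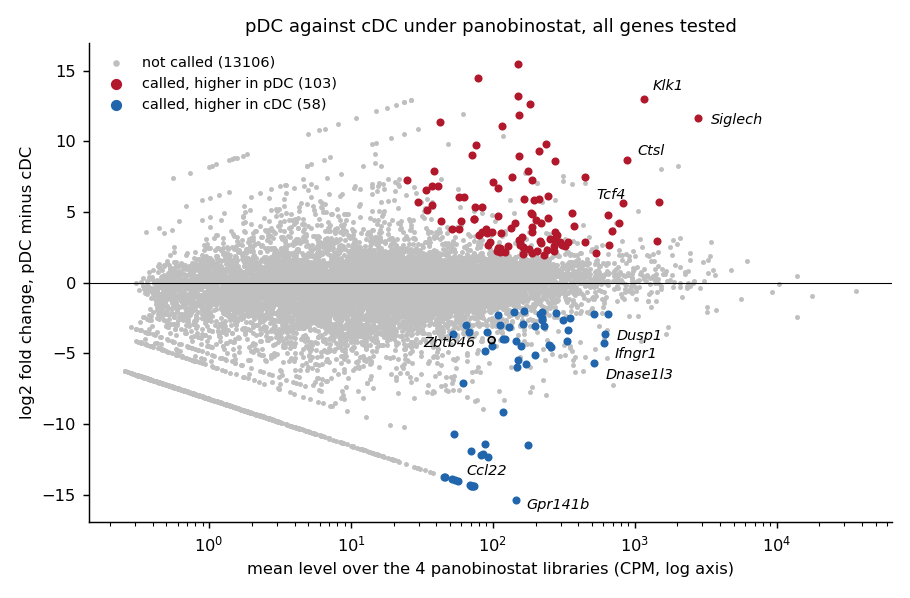
Log2 fold change (pDC minus cDC) against the mean level over the 4 panobinostat libraries (CPM, log axis), 1 point per gene tested. Red points are the 103 genes called higher in pDC and blue points the 58 called higher in cDC; Zbtb46 (open circle) was not called.

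The promoters of 4 called genes are shown, as RefSeq gives them on GRCm38.p6 (the mm10 build). Each is the 250 bases before the start site, 5′ to 3′ on the gene's strand. Siglech (chr7:55767934-55768183, plus strand), Ccr9 (chr9:123766961-123767210, plus strand) and Cd300c (chr11:114960508-114960757, minus strand) are pDC surface genes. Ccl22 (chr8:94745434-94745683, plus strand) is a cDC chemokine gene. Capitals mark matches, on either strand, to the E box CAGGTG, which reads CACCTG from the other strand and is a form that E proteins such as Tcf4 are known to bind. The first 3 were chosen because they hold a match.
Siglech: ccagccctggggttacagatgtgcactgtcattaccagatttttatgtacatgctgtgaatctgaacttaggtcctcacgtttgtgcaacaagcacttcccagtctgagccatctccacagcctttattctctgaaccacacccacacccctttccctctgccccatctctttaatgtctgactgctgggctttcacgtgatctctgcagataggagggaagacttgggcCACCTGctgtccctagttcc
Ccr9: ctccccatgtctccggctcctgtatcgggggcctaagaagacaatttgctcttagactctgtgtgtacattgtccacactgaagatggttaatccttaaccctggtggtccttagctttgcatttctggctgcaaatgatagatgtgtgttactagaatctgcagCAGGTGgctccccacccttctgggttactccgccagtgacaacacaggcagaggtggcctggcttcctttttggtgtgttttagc
Cd300c: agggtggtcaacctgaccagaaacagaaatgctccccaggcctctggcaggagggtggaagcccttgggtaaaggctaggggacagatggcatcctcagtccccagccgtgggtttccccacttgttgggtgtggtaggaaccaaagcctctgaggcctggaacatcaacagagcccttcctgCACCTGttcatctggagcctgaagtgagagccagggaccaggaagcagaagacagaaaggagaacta
Ccl22: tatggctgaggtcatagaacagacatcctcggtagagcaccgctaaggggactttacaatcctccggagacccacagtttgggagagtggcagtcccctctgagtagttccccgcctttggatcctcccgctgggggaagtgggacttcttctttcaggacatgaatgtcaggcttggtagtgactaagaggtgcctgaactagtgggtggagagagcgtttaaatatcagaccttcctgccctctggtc
Counted from the start site of the promoter table, the match begins 20 bases upstream in Siglech, 85 in Ccr9 and 67 in Cd300c, and Ccl22 has none. For Siglech that start site lies inside the gene span given above, which begins at a more upstream start, so its match lies within the span. A promoter was at hand for 81 of the 103 genes called higher in pDC, and 19 of them (23.5%) held CAGGTG, beside 4620 of 27025 promoters of all genes (17.1%) and 7 of 47 (14.9%) among genes called higher in cDC. In the list of pDC surface and secretory markers below, the only list searched, 6 of 10 called members with a promoter held CAGGTG. Of these 10, 0 held the second E box and 1 the ets-IRF element described next. A second E box, CAGCTG, which cannot overlap the first, was in 14.8% of the pDC promoters, 8.51% of the cDC promoters and 12.8% of all. The ets-IRF composite element, searched on both strands and known from Spi1, Spib, Irf4 and Irf8 binding, was in 1.23%, 4.26% and 2.38%. Its ends can share a base with an E box. These are counts of letters in a fixed window and no measure of binding.

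The transcription factors of the pDC program kept the lineage order in treated cells. Of 10 such genes, 2 were called higher in pDC and 0 higher in cDC, both pDC libraries were above both cDC libraries in 8, and the median log2 fold change was 1.75. Tcf4, the E protein on which pDC depend, was called (log2 fold change 4.78 ± 0.36 SE, n = 2 libraries per group, adjusted p = 0.046 by edgeR). Spib, an Ets factor (272382, chromosome 7, 44525995 to 44532087), was at 257 and 288 CPM in pDC against 38.6 and 30.2 CPM in cDC, and was called (2.99 ± 0.24, adjusted p = 0.046 by edgeR).

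Runx2, which is needed for pDC to leave the bone marrow, was at 547 and 201 CPM against 15.3 and 11.5 CPM, a log2 fold change as large as that of Tcf4 with a wider error (4.80 ± 0.65, adjusted p = 0.073 by edgeR), and did not pass. Its pDC libraries differed from each other by more than those of Tcf4. Tcf12, another E protein, was at 74.8 and 51 CPM against 10 and 7.31 CPM. Zeb2, a repressor of Id2, was at 291 and 103 CPM against 56.4 and 36.7 CPM. Neither passed, although their groups did not overlap.

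Irf7, the factor that drives type I interferon transcription, was at 615 and 959 CPM in pDC and 307 and 283 CPM in cDC (log2 fold change 1.41 ± 0.31, adjusted p = 0.126 by edgeR). Bcl11a was at 457 and 398 CPM against 241 and 231 CPM, and Irf8, which both pDC and type 1 cDC need, at 2352 and 1956 CPM against 1435 and 1560 CPM. Cbfa2t3, the corepressor ETO2 that works with E proteins in pDC, was the exception in direction, at 85.9 and 21.1 CPM in pDC and 350 and 311 CPM in cDC (-2.62 ± 0.76, adjusted p = 0.165 by edgeR). Tcf3, a further E protein, overlapped between lineages, at 11.6 and 18 CPM against 14.9 and 8.96 CPM. With the replicate block, Runx2 (adjusted p = 0.00213 by edgeR), Zeb2 (0.0414) and Cbfa2t3 (0.0252) also passed. In the fit without pDC replicate 2, 7 of the 10 were called higher in pDC and 1 higher in cDC.

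Surface and secretory markers of pDC were the list with most calls. Of 24 tested members, 11 were called higher in pDC and 0 higher in cDC, where 0.776% of all genes were called in that direction. In all 24, both pDC libraries lay above both cDC libraries, and the median log2 fold change was 5.89. The other member, Ptcra, was below the filter on low counts, at 8.21 and 0.0858 CPM in pDC and 0.0465 and 0.0515 CPM in cDC. The list held markers chosen for this difference, so the counts describe the sort rather than an effect of treatment.

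Siglech had the largest difference among the called markers outside the Klk1 family (11.63 ± 0.49, adjusted p = 0.0428 by edgeR). Bst2, the antigen that the pDC antibody PDCA-1 recognizes, was at 2007 and 3781 CPM against 47.9 and 62.2 CPM. Cd300c, an activating Ig-like receptor, was at 241 and 413 CPM against 5.07 and 5.82 CPM. Lair1, an inhibitory collagen receptor, was at 1251 and 1307 CPM against 94.7 and 104 CPM. These 3 and Klra17, Blnk, Cd209d and Upb1 were called too. Cox6a2, a cytochrome c oxidase subunit otherwise known from muscle, was at 409 and 534 CPM against 0.419 and 0.618 CPM (9.82 ± 0.40, adjusted p = 0.0428 by edgeR).

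Several markers with differences just as large missed the threshold. Ly6c2, a surface antigen shared with monocytes, was at 2564 and 5502 CPM against 7.91 and 18 CPM (8.28 ± 0.86, adjusted p = 0.0531 by edgeR). Ly6d was at 2264 and 3824 CPM against 4.42 and 18.2 CPM (8.07 ± 1.06, adjusted p = 0.0706). With the replicate block all 24 passed, and without pDC replicate 2 all 25 of the list were tested and passed.

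Kallikrein genes of the Klk1 cluster on chromosome 7 were among the largest differences. Klk1 was at 1731 and 2903 CPM in pDC and 0.14 and 0.412 CPM in cDC. Klk1b5 was at 225 and 377 CPM against 0 counts in both cDC libraries, at least 3797-fold higher in pDC with a floor of 3 counts for both cDC libraries together. Klk1b21 was at least 1984-fold higher by the same floor, and Klk1b27 was at 303 and 429 CPM against 0 and 0.103 CPM. These genes are near copies of each other, and how reads with several alignments were counted is not given in the sources used here, so the share of each gene is uncertain.

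The other genes at the top of the pDC side had no common role. Dntt, the polymerase that adds bases at V(D)J junctions and a known mark of the lymphoid history of pDC, was at 292 and 170 CPM against 0.0465 and 0.154 CPM (11.10 ± 0.71, adjusted p = 0.0431 by edgeR). Myh13, a muscle myosin gene, was at 191 and 414 CPM against 0 and 0.0515 CPM, Grm8, a glutamate receptor gene, at 100 and 69.9 CPM against 0 and 0.0515 CPM, and D13Ertd608e at 274 and 339 CPM against 0 and 0.154 CPM. In each of the 4 the groups were far apart.

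The plot of lineage genes by library shows how the replicates sat. The cDC replicates nearly coincide for most genes. The pDC replicates separate for some genes that are low in pDC, as for Zbtb46, Id2 and Xcr1. They lie close together for others, such as Ifngr1, Ccr7, Ccl22 and Gcsam.

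**Figure D2:**
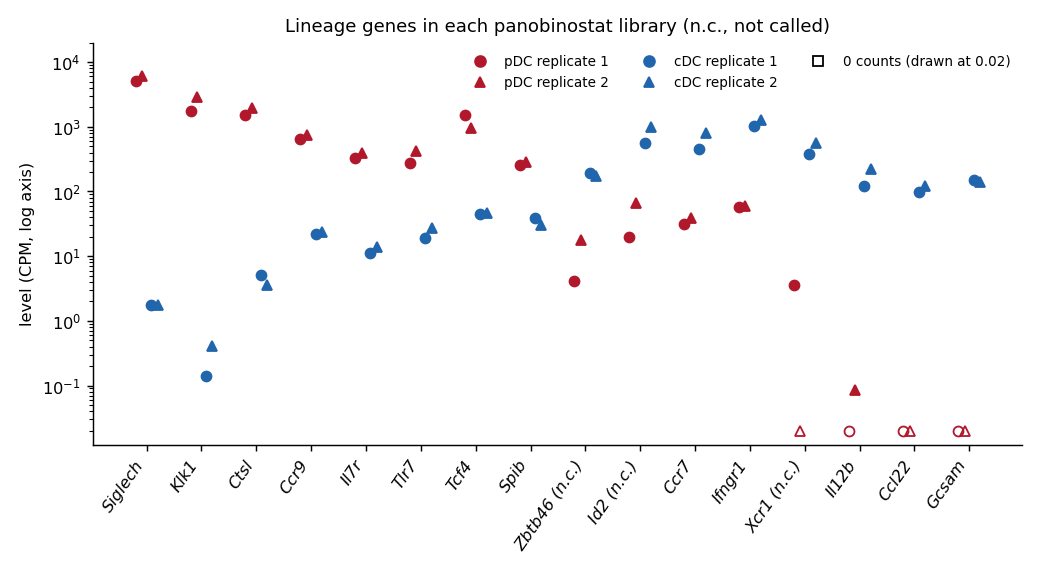
Level of 16 lineage genes in each of the 4 panobinostat libraries (CPM, log axis). Red marks pDC and blue cDC, circles replicate 1 and triangles replicate 2; open symbols are libraries with 0 counts, and n.c. marks genes that did not pass the test.

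For the cDC program the picture was reversed in direction and looser in the test. Of 12 tested transcription factors of cDC, 0 were called by edgeR in either direction, 5 had an unadjusted p under 0.05 (all higher in cDC), and DESeq2 called 6, limma-voom 3 and limma-voom with quality weights 1, all higher in cDC. Both cDC libraries were above both pDC libraries in 8, and the median log2 fold change was -1.62. Zbtb46 had a log2 fold change of -4.06 ± 0.85 (adjusted p = 0.126 by edgeR) and passed with the replicate block (adjusted p = 0.0149). Id2 was at 20 and 66.2 CPM in pDC and 565 and 996 CPM in cDC (-4.18 ± 0.79, adjusted p = 0.119, with the block 0.00207). Relb, an NF-kB subunit that splenic cDC depend on, was at 6.57 and 26 CPM against 342 and 321 CPM (-4.36 ± 0.81, adjusted p = 0.116, with the block 0.00798). In all 3 genes pDC replicate 2 was the higher pDC library. Of the 12, 3 were called higher in cDC with the block and 7 without pDC replicate 2.

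Batf3, on which type 1 cDC depend, was at 1.41 and 17.5 CPM against 116 and 116 CPM, Spi1, the Ets factor PU.1, at 9.01 and 51.5 CPM against 437 and 168 CPM, and Rbpj, the nuclear effector of Notch, at 63.4 and 98.9 CPM against 236 and 192 CPM. Bcl6 was at 20.7 and 5.58 CPM against 46.8 and 46.9 CPM. Nfil3, which type 1 cDC also need, was at 4.18 and 0 CPM against 5.63 and 5.35 CPM. These 5 were lower in both pDC libraries than in either cDC library, and none passed. Klf4 (20.2 and 20.1 CPM against 18.6 and 13.4 CPM) and Batf (27.3 and 31.9 CPM against 16.8 and 21.4 CPM) were slightly higher in both pDC libraries. Irf4 (29.1 and 0.257 CPM against 22.3 and 19.4 CPM) and Cebpa (4.08 and 0 CPM against 1.86 and 1.34 CPM) overlapped. Cebpb, the remaining member, was below the filter.

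A further regulator came from the test over all genes. Zfp366, the zinc finger protein DC-SCRIPT of cDC, had 0 counts in both pDC libraries and was at 89.6 and 92.8 CPM in cDC, at least 1001-fold higher in cDC by a floor of 3 counts for both pDC libraries together (adjusted p = 0.046 by edgeR).

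Type 1 cDC markers were lower in pDC almost throughout. Of 16 tested, 1 was called higher in cDC and 0 higher in pDC, both cDC libraries were above both pDC libraries in 14, and the median was -4.25. The called gene was Gcsam, known as a signalling protein of germinal centre B cells, with 0 counts in both pDC libraries and 151 and 140 CPM in cDC (at least 1601-fold higher in cDC). Wdfy4, which cross-presentation requires, was at 33.9 and 14.9 CPM against 737 and 653 CPM (-4.83 ± 0.53, adjusted p = 0.0558 by edgeR). Snx22 was at 0.0939 and 0.686 CPM against 168 and 170 CPM, and Ppt1, a lysosomal thioesterase, at 286 and 412 CPM against 2619 and 3493 CPM. Xcr1, the chemokine receptor that marks type 1 cDC, was at 3.52 and 0 CPM against 374 and 569 CPM (-7.96 ± 1.77, adjusted p = 0.126 by edgeR).

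One type 1 marker did not follow the others. Clec9a, a receptor for dead cells known to be present also on mouse pDC, was at 174 and 286 CPM in pDC and 167 and 268 CPM in cDC (0.08 ± 0.39, adjusted p = 0.934 by edgeR). With the replicate block 11 of the 16 were called higher in cDC, Wdfy4, Snx22, Ppt1 and Xcr1 among them, and without pDC replicate 2 14.

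Markers of type 2 cDC split by gene. Of 15 tested, 1 was called higher in cDC and 0 higher in pDC. Both cDC libraries were above both pDC libraries in 8, and both pDC libraries were the higher in 6. Over all genes tested those orders held in 38.2% and 25.7%. The called gene was Clec4a4, the lectin DCIR2, at 1.13 and 0.601 CPM in pDC and 122 and 122 CPM in cDC (-7.10 ± 0.49, adjusted p = 0.0431 by edgeR). Dtx1, a target of Notch2 signalling, was at 0.516 and 0.172 CPM against 67.9 and 82.1 CPM (-7.68 ± 0.76, adjusted p = 0.0502). Lectins on the other side were Clec12a, at 509 and 800 CPM in pDC and 73.6 and 93.4 CPM in cDC (2.97 ± 0.34, adjusted p = 0.0583 by edgeR), and Clec10a, at 466 and 615 CPM against 15 and 3.76 CPM (5.85 ± 0.88, adjusted p = 0.0836). Ccr2 was at 788 and 897 CPM against 138 and 181 CPM (2.40 ± 0.26, adjusted p = 0.0539). With the block 4 members were called higher in pDC and 3 higher in cDC, and without pDC replicate 2 5 and 8.

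Genes of mature, migrating DC belonged to cDC with 1 exception. Of 18 tested, 2 were called higher in cDC and 1 higher in pDC, both cDC libraries were above both pDC libraries in 16, and the median was -3.96. Ccr7, the receptor that guides DC to lymph nodes, was at 31.7 and 39.4 CPM in pDC and 458 and 803 CPM in cDC (-4.15 ± 0.41, adjusted p = 0.0498 by edgeR). Ccl22, a chemokine that draws regulatory T cells, had 0 counts in both pDC libraries and was at 98.4 and 120 CPM in cDC, at least 1197-fold higher in cDC. Marcksl1 was at 0.892 and 0.601 CPM against 355 and 120 CPM (adjusted p = 0.0522 by edgeR). The exception was Cd200, a ligand that restrains myeloid cells, at 173 and 179 CPM in pDC and 34.3 and 39.7 CPM in cDC (2.25 ± 0.21, adjusted p = 0.0463 by edgeR). With the block 8 members were called higher in cDC and the same exception remained the only member called higher in pDC. The count higher in cDC was 17 without pDC replicate 2.

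The plot of all lists sets these groups side by side, with 11 red points in the pDC surface and secretory markers. Blue points are few in every list. The cDC transcription factors have 0, the type 1 and type 2 cDC markers 1 each, the mature DC genes 2, and the chemokines and cytokines 4.

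**Figure D3:**
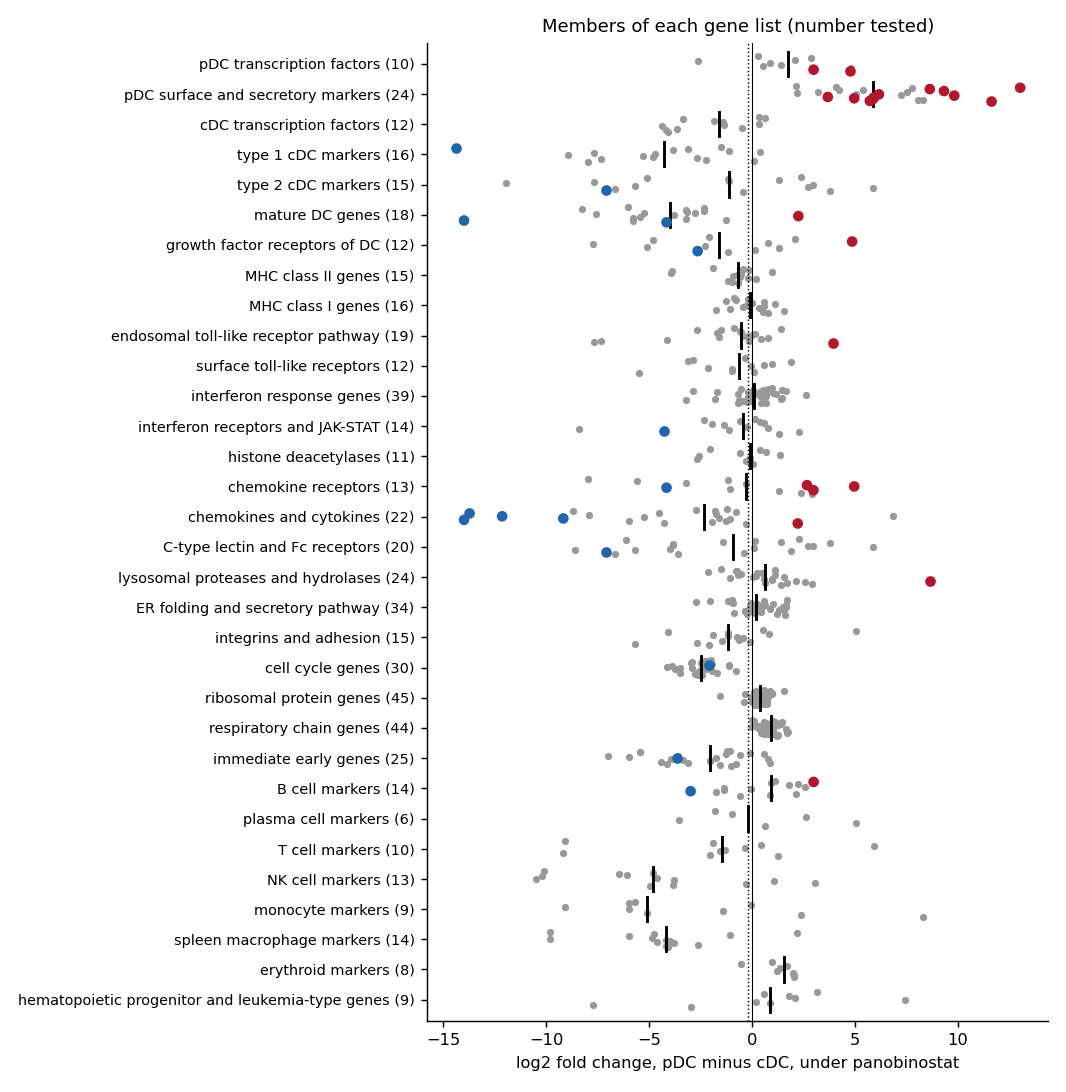
Log2 fold change (pDC minus cDC) of each tested member of 32 gene lists under panobinostat, with the number tested in parentheses. Colored points were called (red higher in pDC, blue higher in cDC), black bars are list medians, and the dotted line is the median of all genes tested (-0.19).

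Most secreted signals were on the cDC side. Of 22 chemokines and cytokines tested, 4 were called higher in cDC (0.437% of all genes were) and 1 higher in pDC, both cDC libraries were above both pDC libraries in 17, and the median was -2.32. Besides Ccl22, the called genes were Il12b, the shared subunit of interleukins 12 and 23, at 0 and 0.0858 CPM in pDC and 123 and 220 CPM in cDC (log2 fold change -12.13, adjusted p = 0.046 by edgeR), and Cxcl9, which attracts T cells, at 0.516 and 0.257 CPM against 127 and 346 CPM (-9.16 ± 0.87, adjusted p = 0.0476). The inflammatory cytokine gene Il1b had 0 counts in both pDC libraries and was at 87.5 and 93.5 CPM in cDC, at least 992-fold higher in cDC (adjusted p = 0.046 by edgeR). With the block, 6 members were called higher in cDC and 1 higher in pDC, and without pDC replicate 2 16 and 2.

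Ccl4, a chemokine that attracts T cells and monocytes, was the member called in the other direction, at 331 and 348 CPM in pDC and 78.6 and 66.5 CPM in cDC (2.22 ± 0.20, adjusted p = 0.0463 by edgeR). Of 13 chemokine receptors tested, 3 were called higher in pDC, and Ccr7 alone higher in cDC. Among the 3 were Ccr9, which guides pDC to the gut and thymus, at 650 and 758 CPM against 21.7 and 23.4 CPM (4.96 ± 0.23, adjusted p = 0.0428 by edgeR), and Cxcr3, at 482 and 573 CPM against 77.5 and 88 CPM (2.67 ± 0.22, adjusted p = 0.046). The receptors called higher in pDC and in cDC numbered 4 and 2 with the block. Their median log2 fold change was -0.30, and 0.63 without pDC replicate 2.

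Growth factor receptors gave 1 call in each direction among 12 tested. Il7r, the interleukin 7 receptor, was at 331 and 399 CPM in pDC and 11.3 and 13.9 CPM in cDC (4.86 ± 0.26, adjusted p = 0.0428 by edgeR). Csf2ra, the GM-CSF receptor, was at 59.4 and 62.7 CPM against 355 and 407 CPM (-2.64 ± 0.20, adjusted p = 0.046). Flt3, the receptor that both lineages need, was at 301 and 325 CPM against 748 and 642 CPM (-1.15 ± 0.21, adjusted p = 0.114). Tgfbr1 was at 139 and 132 CPM against 30.1 and 32.7 CPM (2.11 ± 0.21, adjusted p = 0.0522), and passed with the block (0.0372). With the block 2 were called in each direction, and without pDC replicate 2 3 higher in pDC and 6 higher in cDC.

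Genes of nucleic acid sensing differed by receptor. Of 19 genes of the endosomal toll-like receptor pathway, 1 was called higher in pDC and 0 higher in cDC. It was Tlr7, the sensor of single-stranded RNA, at 275 and 427 CPM in pDC and 19.2 and 27.3 CPM in cDC (3.92 ± 0.38, adjusted p = 0.0489 by edgeR). Tlr3, the sensor of double-stranded RNA and a mark of type 1 cDC, was at 4.37 and 0 CPM against 363 and 389 CPM (-7.35 ± 1.81, adjusted p = 0.128, with the block 0.0191). Tlr9, the sensor of CpG DNA, was low in all 4 libraries, at 22.1 and 6.86 CPM against 18 and 14.6 CPM (-0.17 ± 0.84, adjusted p = 0.934). Irf5, which signals downstream of these receptors, was at 182 and 216 CPM against 575 and 542 CPM (-1.49 ± 0.21, adjusted p = 0.0747). The pathway had 1 call higher in pDC and 2 higher in cDC with the block, and 2 and 10 without pDC replicate 2. Of 12 surface toll-like receptor genes, edgeR called 0, and 2 had an unadjusted p under 0.05 (2985 of all 13267 genes tested did). DESeq2 called 3 of the 12 (2057 of all genes), and limma-voom 0 with or without quality weights. With the block 1 was called higher in pDC, and without pDC replicate 2 2 higher in pDC and 6 higher in cDC.

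Interferon transcripts were rare. Of 17 type I interferon genes, 14 and 17 had 0 counts in the pDC libraries and 15 and 16 in the cDC libraries. Ifnb1 had 20 counts in pDC replicate 1 and 0 in the 3 other libraries, and Ifnk had 18 and 0 counts in pDC and 10 and 10 in cDC. The receptor side differed by type. Ifngr1, a chain of the interferon gamma receptor, was at 58.5 and 59.1 CPM in pDC and 1033 and 1260 CPM in cDC (-4.28 ± 0.25, adjusted p = 0.0431 by edgeR). Ifnar2, a chain of the type I interferon receptor, was at 355 and 529 CPM against 89 and 91.3 CPM (2.29 ± 0.28, adjusted p = 0.0633), and Ifnar1 at 303 and 341 CPM against 121 and 142 CPM (1.30 ± 0.20, adjusted p = 0.0882). With the block, Ifnar2 passed (adjusted p = 0.0124). Of 14 interferon receptor and JAK-STAT genes, 1 was called higher in pDC and 2 higher in cDC with the block, and 4 and 6 without pDC replicate 2.

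Interferon response genes lay on both sides and none passed the test. Of 39 tested, edgeR called 0, and 12 had an unadjusted p under 0.05 (10 higher in pDC and 2 higher in cDC). Over all 13267 genes 2985 had such a p. DESeq2 called 8 of the 39 (6 higher in pDC), limma-voom 2 and limma-voom with quality weights 1. Both pDC libraries were above both cDC libraries in 16 and below them in 10, where 25.7% and 38.2% of all genes had these orders. The median was 0.08, beside -0.19 over all genes tested. Ifi44 was at 54.9 and 68.1 CPM in pDC and 8.24 and 11.6 CPM in cDC (2.63 ± 0.42, adjusted p = 0.0942 by edgeR), and Trim30a at 289 and 287 CPM against 81.1 and 105 CPM (1.63 ± 0.22, adjusted p = 0.0724). Rtp4, a chaperone of receptors, was at 10.4 and 7.46 CPM against 55.3 and 73.3 CPM (-2.85 ± 0.43, adjusted p = 0.0854), and Dtx3l, a ubiquitin ligase, at 44.1 and 29.9 CPM against 116 and 125 CPM (-1.70 ± 0.30, adjusted p = 0.108). With the block Trim30a passed (0.0374), the 1 member that did. Without pDC replicate 2 the median of the list was 0.12, beside -0.07 over all genes tested.

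None of the listed antigen presentation genes passed the test. Of 15 genes of the MHC class II pathway, edgeR called 0, 5 had an unadjusted p under 0.05 (4 higher in cDC), DESeq2 called 3, limma-voom 2 and limma-voom with quality weights 1. Ciita, the activator that class II transcription requires, was at 105 and 41.9 CPM in pDC and 1221 and 1046 CPM in cDC (-3.95 ± 0.57, adjusted p = 0.0813, with the block 0.00369). Marchf1, which removes class II from the surface, was at 98.1 and 135 CPM against 384 and 486 CPM (-1.90 ± 0.28, adjusted p = 0.0813, with the block 0.0178). Outside the list, H2-Eb2, a lesser class II beta chain, was called, at 10.1 and 12.6 CPM in pDC and 130 and 121 CPM in cDC (-3.46 ± 0.28, adjusted p = 0.046 by edgeR). H2-Eb1, a related gene with a higher level in every library, was at 2264 and 4579 CPM against 7346 and 8059 CPM (-1.17 ± 0.54, adjusted p = 0.314). Of 16 MHC class I genes, edgeR called 0, and 5 had an unadjusted p under 0.05, all higher in cDC, beside 2985 of all 13267 genes. DESeq2 called 5 of the 16, limma-voom 1 and limma-voom with quality weights 0. Tap1, a peptide transporter subunit, was at 256 and 199 CPM against 701 and 848 CPM (-1.77 ± 0.25, adjusted p = 0.0794, with the block 0.0335). In the fit without pDC replicate 2, 10 class II genes were called higher in cDC and 1 higher in pDC, and 5 and 0 class I genes.

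No difference was called among genes of the drug's target family. Of 11 histone deacetylase genes, edgeR, DESeq2 and limma-voom with or without quality weights called 0, and 0 had an unadjusted p under 0.05. Hdac1 was at 231 and 223 CPM in pDC and 225 and 220 CPM in cDC (0.03 ± 0.17, adjusted p = 0.949 by edgeR). Hdac3 was at 115 and 14.7 CPM against 82.4 and 73.4 CPM, and Hdac6 at 8.5 and 0.172 CPM against 28.3 and 23.5 CPM, each with a lower value in pDC replicate 2. For these 2 genes the standard errors were 1.01 and 1.80 log2 units. With the block 0 were called. Without pDC replicate 2, log2 fold changes were 1.07 for Hdac9, 0.53 for Hdac3, -1.64 for Hdac6 and -1.71 for Hdac4. Without pDC replicate 1 instead, Hdac3 was at -2.42, so its sign depends on which pDC library is kept. The median of the list was -0.09, 0.04 without pDC replicate 2 and -1.18 without pDC replicate 1.

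One lysosomal protease was among the widest differences on the pDC side. Of 24 lysosomal genes, 1 was called higher in pDC and 0 higher in cDC. Both pDC libraries were above both cDC libraries in 13, beside 25.7% of all genes tested. Ctsl, cathepsin L (13039, chromosome 13, 64361890 to 64370772), was at 1535 and 1967 CPM in pDC and 5.17 and 3.55 CPM in cDC (8.65 ± 0.43, adjusted p = 0.0428 by edgeR). Ctsb, cathepsin B, was at 5667 and 6442 CPM against 793 and 815 CPM (2.91 ± 0.35, adjusted p = 0.0619), and Man2b1, a lysosomal mannosidase, went the other way at 186 and 254 CPM against 952 and 973 CPM (-2.13 ± 0.26, adjusted p = 0.0633). With the block, 5 were called higher in pDC and 1 higher in cDC. The median log2 fold change of the list was 0.61, and 0.29 without pDC replicate 2.

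Adhesion and uptake receptors divided by gene. Of 20 C-type lectin and Fc receptor genes, Clec4a4 alone was called, and with the block 4 were called higher in pDC and 3 higher in cDC (without pDC replicate 2, 4 and 9). Of 15 integrin and adhesion genes, edgeR called 0, 6 had an unadjusted p under 0.05, DESeq2 called 6, and limma-voom 2 with or without quality weights. Itgax, the integrin CD11c by which DC are often sorted, was at 117 and 190 CPM in pDC and 649 and 678 CPM in cDC (-2.11 ± 0.32, adjusted p = 0.0857 by edgeR). Its groups did not overlap. With the block 1 adhesion gene was called in each direction, and without pDC replicate 2 2 higher in pDC and 7 higher in cDC.

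All 30 cell cycle genes were higher in both cDC libraries than in either pDC library, with a median of -2.46. One was called, Rrm2, a subunit of ribonucleotide reductase, at 55.4 and 52.9 CPM in pDC and 244 and 209 CPM in cDC (-2.07 ± 0.20, adjusted p = 0.0494 by edgeR). With the block 6 were called, and without pDC replicate 2 all 30. Mcm4, a helicase subunit, was at 48.8 and 56.4 CPM against 172 and 172 CPM (-1.71 ± 0.20, adjusted p = 0.0596). Of these 30 genes, 8 had 0 counts in pDC replicate 2 and 0 had none in the 3 other libraries. Under vehicle all 30 had been called higher in cDC.

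Genes of the secretory pathway, ribosome and respiratory chain had no calls. Of 34 genes of ER folding and secretion, edgeR called 0, 12 had an unadjusted p under 0.05 (9 higher in pDC), DESeq2 called 11, limma-voom 4 and limma-voom with quality weights 0. Xbp1, the factor that expands the ER of secretory cells, was at 794 and 842 CPM in pDC and 260 and 271 CPM in cDC (1.62 ± 0.20, adjusted p = 0.062 by edgeR, with the block 0.0352). With the block 4 were called higher in pDC, and without pDC replicate 2 10 higher in pDC and 5 higher in cDC. Of 44 respiratory chain genes, edgeR called 0, and 10 had an unadjusted p under 0.05, a share near that of all genes (2985 of 13267). DESeq2 called 3 of the 44 and limma-voom 0 with or without quality weights. Beside 25.7% of all genes tested, 36 of these 44 had both pDC libraries above both cDC libraries. Their median of 0.89 was 0.35 without pDC replicate 2, whose summed level was 14112 CPM where the 3 other libraries had 7109 to 8231 CPM. For 45 ribosomal protein genes, of which edgeR called 0 (1 at an unadjusted p under 0.05, 1 by DESeq2 and 0 by limma-voom), the median was 0.39 and turned to -0.27 without that library, whose summed level was 49396 CPM against 24399 to 30736 CPM. With the block 0 genes of either list were called, and without that library 7 respiratory chain genes were called higher in pDC and 5 ribosomal protein genes higher in cDC. The part of that library in both medians was not tested beyond leaving it out.

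Most immediate early genes, which cell handling and signalling both induce, were lower in pDC. Of 25 tested, 1 was called higher in cDC and 0 higher in pDC, both cDC libraries were above both pDC libraries in 20, and the median was -2.02. Dusp1, a phosphatase of MAP kinases, was at 93.8 and 91.4 CPM in pDC and 1016 and 1286 CPM in cDC (-3.64 ± 0.25, adjusted p = 0.0445 by edgeR). Junb was at 167 and 73.6 CPM against 1862 and 2341 CPM (-4.12 ± 0.56, adjusted p = 0.0722). With the block 6 members were called higher in cDC, and without pDC replicate 2 15. Summed over the list, pDC held 6741 and 4099 CPM and cDC 15593 and 14997 CPM. Whether the sort differed between the cell types is not given in the sources used here, and its part in this difference was not tested.

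Other called genes on the cDC side included Dnase1l3, a secreted DNase that degrades DNA in microparticles, at 18.7 and 21.2 CPM in pDC and 676 and 1364 CPM in cDC (-5.68 ± 0.50, adjusted p = 0.0463 by edgeR), and Havcr2, the checkpoint receptor TIM-3, at 12.7 and 14 CPM against 258 and 344 CPM (-4.50 ± 0.27, adjusted p = 0.0431). On the pDC side its family member Havcr1, TIM-1, was at 356 and 388 CPM in pDC and 2.37 and 2.37 CPM in cDC (7.29 ± 0.23, adjusted p = 0.0428). The genes of the matrix protein Tgfbi (155 and 128 CPM in cDC), the creatine synthesis enzyme Gatm (142 and 141 CPM), the ubiquitin ligase Rnf144b (139 and 156 CPM), the actin binder Dbn1 (137 and 91 CPM), Hap1 (124 and 81.2 CPM), the Ig-like receptor gene Sirpb1b (155 and 124 CPM) and the orphan receptor gene Gpr141b (234 and 345 CPM) had 0 counts in both pDC libraries. With Zfp366, Gcsam, Ccl22 and Il1b these are all 11 called genes of that kind, and their lower bounds ran from 992-fold to 3152-fold. Under vehicle the same 11 genes had 2 to 27 counts in each pDC library. Sirpb1b has near copies among its neighbours, so its reads are uncertain.

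Markers of other cells were measured beside these results. NK cell markers had a median of -4.81 with 0 called by edgeR (5 at an unadjusted p under 0.05, 5 by DESeq2, 2 by limma-voom with or without quality weights), and their summed level was 566 and 1236 CPM in pDC and 254 and 611 CPM in cDC. Klrd1, an NK receptor chain that pDC are known to carry, was at 386 and 768 CPM in pDC and 63.6 and 74.1 CPM in cDC and was the 1 member called with the block (adjusted p = 0.00617 by edgeR). Of the 16 NK cell markers listed, 13 had 0 counts in pDC replicate 2 and 4 in pDC replicate 1. The median of those tested was -10.19 without pDC replicate 1 and -4.62 without pDC replicate 2. It was -6.25 without cDC replicate 1 and -1.12 without cDC replicate 2. Genes of the cytotoxic program were higher in cDC replicate 2 than in the 3 other libraries. Nkg7 was at 2.02 and 0 CPM in pDC and 2.51 and 55.5 CPM in cDC, and Gzma at 1.97 and 0 CPM against 1.49 and 47.9 CPM. Of 14 macrophage markers, edgeR called 0 (4 at an unadjusted p under 0.05, 4 by DESeq2, 1 by limma-voom and 0 with quality weights), both cDC libraries were above both pDC libraries in 12, and their summed level was 74.8 and 45.4 CPM in pDC and 645 and 339 CPM in cDC. Of these 14 markers, 12 had 0 counts in pDC replicate 2 and 2 in pDC replicate 1. Adgre1 (F4/80) was at 4.69 and 0 CPM against 199 and 111 CPM and passed with the block (adjusted p = 0.0309 by edgeR). Without pDC replicate 2, 8 of the 14 were called higher in cDC.

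Hemoglobin genes were highest in pDC replicate 1: Hba-a1 was at 2013 and 785 CPM in pDC and 584 and 99.3 CPM in cDC. Of 8 erythroid markers, 0 were called by edgeR, DESeq2 or limma-voom, and 0 had an unadjusted p under 0.05. With the block 3 were called higher in pDC by edgeR, Hba-a1 (adjusted p = 0.0273), Hba-a2 (0.0353) and Hbb-bs (0.0149), and without pDC replicate 2 again 0. Among 14 B cell markers, Spib was called higher in pDC and Cd22 higher in cDC, at 15.7 and 13.2 CPM against 108 and 120 CPM. Ighm, which pDC are known to transcribe, was at 3010 and 3007 CPM in pDC and 459 and 565 CPM in cDC (2.55 ± 0.29, adjusted p = 0.0579 by edgeR). With the block, 4 B cell markers were called higher in pDC and 1 higher in cDC, and without pDC replicate 2 4 and 2. Lyz2, of monocytes and macrophages, was at 2.63 and 9.01 CPM in pDC and 338 and 383 CPM in cDC (-5.97 ± 0.78, adjusted p = 0.0695). Kit, in the list of progenitor and leukemia-type genes, was at 3.24 and 0 CPM in pDC and 370 and 360 CPM in cDC (-7.71 ± 1.72, adjusted p = 0.126, with the block 0.0133), while Hoxa9 was at 6.99 and 20 CPM against 0.0931 and 0.0515 CPM. Of the 36 tested markers of plasma cells, T cells, neutrophils, monocytes and progenitors, edgeR called 0, 15 had an unadjusted p under 0.05, DESeq2 called 14, limma-voom 7 and limma-voom with quality weights 6. With the block, 1 plasma cell, 1 T cell and 2 monocyte markers were called higher in pDC, and 1 monocyte and 1 progenitor marker higher in cDC. The part of other cells in the lineage differences was not tested.

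Most genes called between the lineages under vehicle kept their sign under panobinostat. In the vehicle libraries, fitted on their own, 4491 of 13710 genes (32.8%) were called, 1967 higher in pDC and 2524 higher in cDC. The standard error of a log2 fold change had a median of 0.29 there and 0.85 under panobinostat. Of the 1967, 1817 were tested under panobinostat, 1621 (89.2%) had the same sign and 1294 (71.2%) had both pDC libraries above both cDC libraries. Of the 2524, 2391 were tested, 2302 (96.3%) had the same sign and 2142 (89.6%) had both cDC libraries above both pDC libraries. The opposite order, with no overlap, was seen in 73 and 11 genes. Over all genes tested under panobinostat, both pDC libraries were above both cDC libraries in 25.7% and below them in 38.2%.

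The libraries differed in this. Of the 1817 genes, 92.5% were above both cDC libraries in pDC replicate 1 and 73.2% in pDC replicate 2, where 122 of them had 0 counts. Of the 2391 genes, 96.2% were below both cDC libraries in replicate 1 and 92.3% in replicate 2, where 1026 (42.9%) had 0 counts. Of all 13267 genes tested, 591 had 0 counts in pDC replicate 1 and 3093 in pDC replicate 2. A gene with 0 counts there lies below both cDC libraries wherever these hold counts, whatever its lineage. The matching single-library shares over all genes were not computed. The median log2 fold change of the vehicle calls was 1.49 under vehicle and 1.38 under panobinostat for those higher in pDC, and -2.50 and -2.58 for those higher in cDC. Across 13000 genes tested in both, which are not independent replicates, the log2 fold changes correlated with r = 0.817, and with r = 0.835 without pDC replicate 2.

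**Figure D4:**
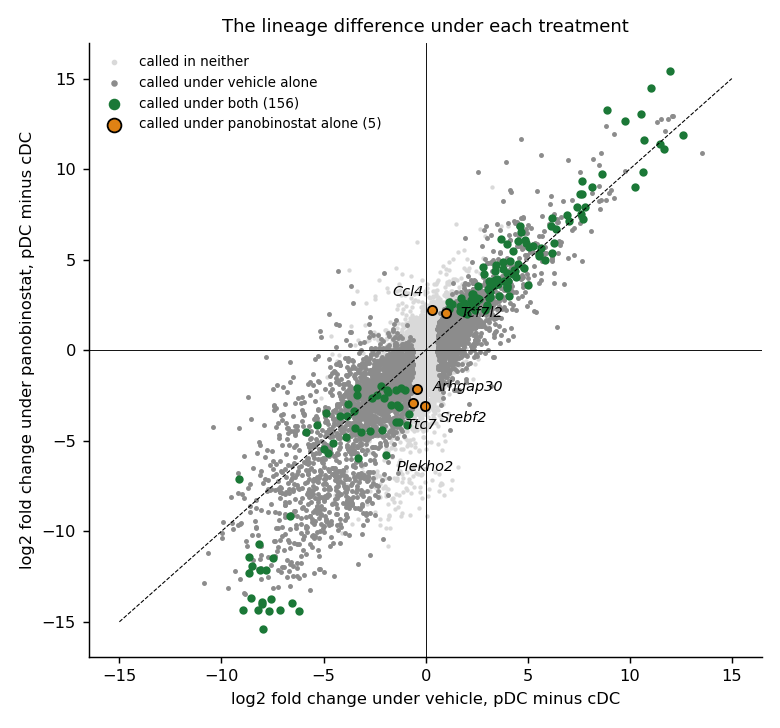
Log2 fold change (pDC minus cDC) of each gene under vehicle (x) and under panobinostat (y), with the line of equal values dashed. Green points were called under both (156 genes) and orange points under panobinostat alone (5 genes); points far below the line at the lower left include genes with 0 counts in both treated pDC libraries.

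In the other direction, 101 of the 103 genes called higher in pDC under panobinostat (98.1%) and 55 of the 58 called higher in cDC (94.8%) had also been called the same way under vehicle, and 0 the opposite way. The other 5 genes, singled out after their values were seen, are Ccl4, Tcf7l2, Srebf2, Ttc7 and Arhgap30. On a scale shared by all 8 libraries, Ccl4 was at 84.3 and 132 CPM in vehicle pDC and 349 and 377 CPM in treated pDC, and at 132 and 36 CPM in vehicle cDC and 81.4 and 70.2 CPM in treated cDC. Tcf7l2, a Wnt pathway factor, was at 199 and 106 CPM in vehicle pDC and 291 and 274 CPM in treated pDC, with cDC at 103 and 48.4 CPM and at 69.7 and 65.1 CPM. In both genes the treated pDC libraries were the highest of the 8.

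The 3 others were lowest in treated pDC. Srebf2, the regulator of cholesterol synthesis genes, was at 389 and 279 CPM in vehicle pDC, 60.1 and 43 CPM in treated pDC, 347 and 317 CPM in vehicle cDC and 443 and 407 CPM in treated cDC. Its lineage difference was -0.02 ± 0.23 under vehicle and -3.07 ± 0.28 under panobinostat. Ttc7 went from a difference of -0.62 ± 0.22 to -2.93 ± 0.20, and Arhgap30 from -0.43 ± 0.19 to -2.16 ± 0.18.

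Whether the lineage difference itself changed was tested over all 8 libraries. Of 14238 genes, 1 (0.00702%) passed by edgeR, and 1107 had an unadjusted p under 0.05. It was Plekho2, the gene of a protein with a pleckstrin homology domain (102595, chromosome 9, 65552577 to 65580087). On the shared scale it was at 72 and 81 CPM in vehicle pDC and 6.35 and 6.78 CPM in treated pDC, with 315 and 262 CPM in vehicle cDC and 362 and 341 CPM in treated cDC. The lineage difference was -1.94 ± 0.20 under vehicle and -5.78 ± 0.22 under panobinostat, a change of -3.83 ± 0.25 (n = 2 libraries per group, adjusted p = 0.0455 by edgeR). None of the 5 genes called under panobinostat alone passed this test. Adjusted p values of the change were 0.17 for Srebf2, 0.183 for Ttc7, 0.214 for Arhgap30, 0.653 for Ccl4 and 0.762 for Tcf7l2. The change in Plekho2 kept a size of -3.71 to -3.99 in every alternative run, and did not pass with RLE scaling, with the replicate block, or when any 1 of 6 libraries (both treated cDC and all 4 vehicle libraries) was left out. It passed without either treated pDC library.

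**Figure D5:**
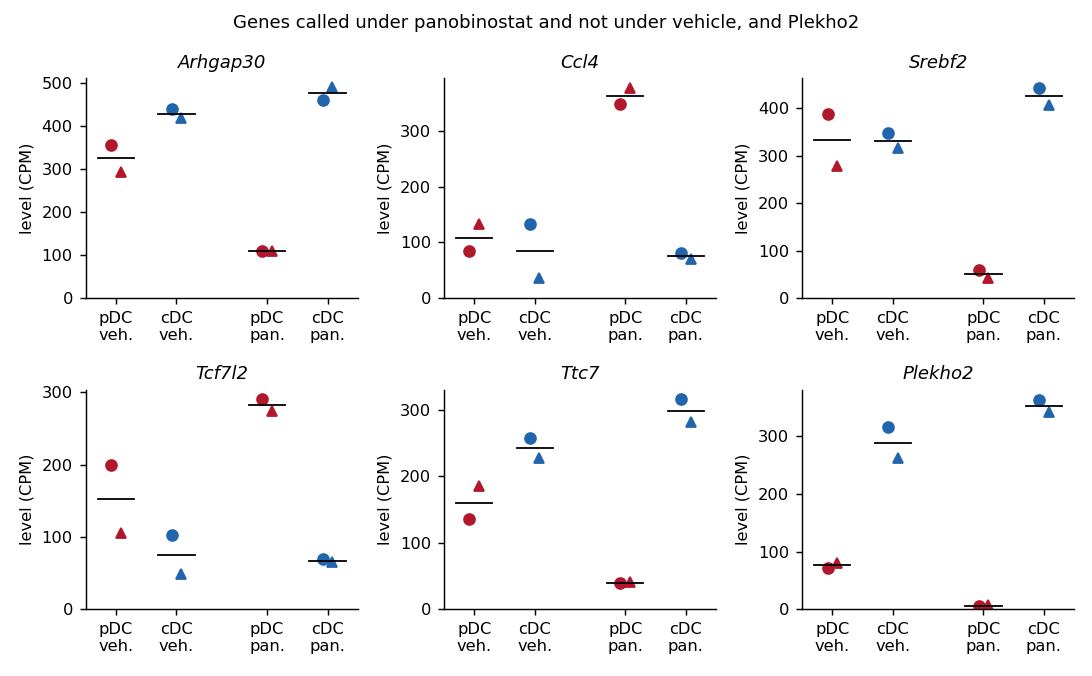
Levels (CPM on a scale shared by all 8 libraries) of the 5 genes called between lineages under panobinostat and not under vehicle, and of Plekho2. Circles are replicate 1, triangles replicate 2 and bars group means (veh., vehicle; pan., panobinostat); Plekho2 is at 6.35 and 6.78 CPM in treated pDC.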

How the data were processed

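RNA of sorted cells was sequenced in 8 libraries, of which the 4 from panobinostat-treated mice form the comparison here. The authors deposited whole-number read counts per Entrez gene. Per the submitters' processing notes, the tools included bcl2fastq 2.17.1.14, FastQC 0.11.6, cutadapt 2.1, HISAT2 2.1.0 and featureCounts (Subread 2.0.0), with mm10 as the build. For the counting, the strand setting, the annotation and what was done with multiply aligned reads are not stated in the labels or notes.

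Symbols, coordinates and promoters came from RefSeq (GRCm38.p6), which named 25275 of 27179 gene IDs. Groups came from the labels' titles. Genes were filtered with filterByExpr (minimum count 10, minimum total 15), scaled by TMM and tested with edgeR 4.0.16 (quasi-likelihood, R 4.3.3) on the 4 libraries alone, with Benjamini-Hochberg adjustment over all genes tested and a threshold of 0.05. CPM values are relative to the TMM-scaled library size. The same was done for the 4 vehicle libraries, and the difference between treatments was fitted over all 8. The procedure was tested on simulated data. Nothing in the labels ties a library to one culture or day, and p-values measure the spread between pools of mice. Alternatives included other scalings and filters, DESeq2 1.42.0, limma-voom (limma 3.58.1), all 8 libraries, the replicate block and leaving out each library.

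Libraries with the same replicate number deviated together: the correlations of their deviations from the group means were 0.146 to 0.489 over the 6 pairs of groups (0.161 between the panobinostat groups). The numbers, taken from the labels, were therefore used to pair the libraries in the fits with the replicate block. The labels do not say what same-numbered pools share. The main test did not use this pairing, nor did any adjusted p printed without mention of the block. On the 4 libraries the block fit leaves 1 residual degree of freedom and the main fit 2. The degrees of freedom that edgeR borrows from the other genes had a median of 5.88 with the block and 1.88 without. The pairing was chosen from these same data, and its part in the larger number of calls was not tested.

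Named genes are those with the 10 largest changes per direction among called genes with a mean of at least 3 (log2 CPM) and no overlap between lineages, the cDC and pDC transcription factors, expressed type I interferon genes, the called gene of the difference, and members of each list with the smallest p, of which the text takes some. Arhgap30, Blnk, Bst2, Cd300c, Clec10a, Clec9a, Cxcl9, Dnase1l3, Gzma, H2-Eb1, H2-Eb2, Havcr1, Havcr2, Hdac1, Hdac3, Klra17, Lair1, Ly6d, Nkg7, Srebf2, Tcf7l2, Tlr3, Tlr9, Ttc7, Upb1 and Xcr1 were named after their values were seen. The comparison and the 34 gene lists were chosen with earlier results of these data known. Some items are not reported here.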

Additional observations from a re-analysis of the deposited data

Results flagged for a closer look

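Plekho2 was marked because its lineage difference was not the same in the treated and the vehicle libraries by the test of that difference itself. The change was -3.83 ± 0.25 on the log2 scale (adjusted p = 0.0455 by edgeR over 14238 genes, 2 libraries per group). On the shared scale both treated pDC libraries (6.35 and 6.78 CPM) lay below both vehicle pDC libraries (72 and 81 CPM). Both treated cDC libraries (362 and 341 CPM) lay above both vehicle cDC libraries (315 and 262 CPM). In raw counts the cDC libraries overlapped, at 7506 and 6273 treated and 6753 and 5666 under vehicle, so their order depends on the scaling. Plekho2 was picked by a test of these same values, so their order is no separate support. Across the alternatives tried the change stayed between -3.71 and -3.99, while its adjusted p ran from 7.66e-26 with DESeq2 to 0.75 without vehicle cDC replicate 2.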

How the results depend on the processing

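Of the 161 genes called between lineages under panobinostat, 0 changed direction under any alternative. That is no separate support, because the alternatives reuse the same libraries. In all 161 the lineages did not overlap, and the smallest log2 fold change was 1.99 in size, so a turned sign was hardly possible. The count of 161 itself moved with nearly every choice. It was 196 with upper quartile scaling and 221 with library sizes alone, and moved further with RLE scaling (82), no filter (327), a stricter filter (352), DESeq2 (2057), limma-voom (712), limma-voom with quality weights (564) and all 8 libraries in the fit (2557). With the replicate block it was 589, and 2302 with the block and all 8 libraries. Leaving out 1 library gave 377 to 10326 calls (10326 without pDC replicate 1, 6325 without pDC replicate 2, 435 without cDC replicate 1, 377 without cDC replicate 2), and all 8 libraries without pDC replicate 2 gave 5432. With a lone library in a lineage, that library is assumed to vary like the other group. The vehicle count of 4491 was 1978 to 3887 with 1 library left out (1978 without cDC replicate 1, 2074 without cDC replicate 2), and within 1.5 times under the other alternatives, the block (5954) included. The count of 1 for the difference was 0 with RLE scaling and with the replicate block, 5 without a filter, 290 with DESeq2, and 0 to 6457 with 1 library left out (6457 without treated pDC replicate 1, 279 without treated pDC replicate 2). The causes were not tested.

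Of 126 genes named in the text, 8 changed sign under some alternative. With all 8 libraries but pDC replicate 2, the log2 fold change was 0.51 for Hdac3, 0.74 for Ifnk, 0.44 for Irf4, 0.39 for Tlr9, -0.08 for Tcf3 and -0.37 for Clec9a, which was also at -0.01 with library sizes alone. Cebpa was at -2.47 with limma-voom, -2.17 with quality weights, -1.84 with the replicate block and -0.03 with the block and all 8 libraries. Hdac1, with a value near 0, was at -0.01 with RLE scaling and with DESeq2, -0.04 with library sizes alone and -0.03 without a filter. With 1 library left out at a time, the ranges were -7.82 to 1.32 for Cebpa, -0.35 to 0.40 for Clec9a, -0.05 to 0.02 for Hdac1, -2.42 to 0.53 for Hdac3, -0.30 to 0.75 for Ifnk, -6.31 to 0.45 for Irf4, -0.07 to 0.71 for Tcf3 and -1.25 to 0.41 for Tlr9. The lower ends for Cebpa, Hdac3, Irf4 and Tlr9 come from the fit without pDC replicate 1. Ifnk was not tested in that fit, so its range covers the others alone. In pDC replicate 2, the library with the fewest counts, 3093 genes tested had 0 counts, and the part of its depth in these sign changes was not tested.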
